A study of Mus musculus with 4 samples.

Results

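Trem2, Spp1, Gpnmb, Cd9, Fabp5 and Lgals3 are 6 genes that are often measured together in macrophages of scarred and lipid-laden tissue. They were taken by symbol from the 32285 genes of the deposited count tables, and all 6 symbols were matched. Their levels were followed in 4 spatial transcriptomics sections of injured mouse Achilles tendon, in which each spot of the array captures RNA from a small patch of tissue that can hold several cells of different types.

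The F592A group held 2 sections (F592A 1 and F592A 2) from mice with the TrkA F592A allele, labelled with the treatment 1NMPP1. The WT group held 2 sections (WT 1 and WT 2) from TrkA WT mice, labelled as control. TrkA is the receptor kinase for nerve growth factor, and the F592A change makes the kinase sensitive to the small molecule 1NMPP1, so the pair of groups asks what follows when TrkA signalling is inhibited after injury. Mice of both sexes were used. They were 12 weeks old and had a punch of 0.5 mm through the left Achilles tendon about 2 mm above its insertion on the heel bone. The tissue was taken 14 days later and cut at 10 µm. The design text gives 4 pooled mice per genotype, and the labels say neither which mouse a section came from nor whether WT mice received 1NMPP1. The p-values therefore measure the spread between sections, which may be technical, and genotype and drug cannot be told apart.

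Macrophages enter a healing tendon from the blood and from the surrounding tissue, clear debris and help to set how much matrix is laid down. Trem2 is a lipid-sensing surface receptor that signals through the adaptor Tyrobp. Spp1 encodes osteopontin, a secreted ligand of integrins and Cd44 that is also made by bone cells and injured mesenchymal cells. Gpnmb is a lysosomal and cell surface glycoprotein of phagocytes and of pigment cells. Cd9 is a tetraspanin that organises membrane proteins, Fabp5 is a fatty acid carrier known from epidermis, and Lgals3 is the sugar-binding lectin galectin-3. Outside macrophages the last 3 genes are known from many epithelial cells.

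The promoters of the 3 genes that are mostly read as a macrophage programme are shown because these genes piled up in the same few spots in some sections. They are the 250 bases before the annotated start, from RefSeq on build GRCm38.p6, which has the coordinates of mm10. The genes lie at chr17:48346401-48352276 (Trem2, ENSMUSG00000023992), chr5:104435111-104441053 (Spp1, ENSMUSG00000029304) and chr6:49036518-49058182 (Gpnmb, ENSMUSG00000029816). Cd9 (ENSMUSG00000030342) lies at chr6:125460266-125494760, Fabp5 (ENSMUSG00000027533) at chr3:10012585-10016610 and Lgals3 (ENSMUSG00000050335) at chr14:47373860-47386167. Capitals mark matches on either strand to any of 5 motifs. The AP-1-type motif searched was TGANTCA, and the core that ETS factors recognise was searched as GAGGAA. For the TATA box the letters TATAAA were used. The E-box was searched as CACGTG, and a form of it that MiT factors also bind as CATGTG.

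Trem2, chr17:48346151-48346400, plus strand: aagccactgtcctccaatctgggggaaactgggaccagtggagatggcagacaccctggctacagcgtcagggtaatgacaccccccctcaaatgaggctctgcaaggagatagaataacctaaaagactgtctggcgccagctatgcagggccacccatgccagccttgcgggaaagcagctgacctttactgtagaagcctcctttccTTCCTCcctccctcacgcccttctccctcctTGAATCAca

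Spp1, chr5:104434861-104435110, plus strand: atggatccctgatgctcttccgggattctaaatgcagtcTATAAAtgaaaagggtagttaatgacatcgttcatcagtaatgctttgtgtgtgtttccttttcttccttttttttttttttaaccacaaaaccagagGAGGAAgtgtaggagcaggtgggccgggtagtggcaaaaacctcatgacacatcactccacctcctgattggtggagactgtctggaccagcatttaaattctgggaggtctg

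Gpnmb, chr6:49036268-49036517, plus strand: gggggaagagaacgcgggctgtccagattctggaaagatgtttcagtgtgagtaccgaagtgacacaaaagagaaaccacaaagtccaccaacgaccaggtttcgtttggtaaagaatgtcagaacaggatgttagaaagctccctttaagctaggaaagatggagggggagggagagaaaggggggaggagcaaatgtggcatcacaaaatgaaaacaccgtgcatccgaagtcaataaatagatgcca

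The Trem2 window held the AP-1-type motif 2 bases before the start and the ETS-type core, on the reverse strand, 34 bases before it. The Spp1 window shown, before the first of its annotated starts in the table, held the ETS-type core 107 bases and the TATA box core 205 bases before the start. The window before the other Spp1 start, chr5:104435942-104436191, is not shown and held none of the 5 motifs. None matched in the Gpnmb window, and the matches did not overlap each other. Among 32851 promoter windows of the same length, 6.75% held the AP-1-type motif, 23.3% the ETS-type core, 12.4% the TATA box core, 6.02% the E-box and 12.3% its MiT form. These matches describe letters and say nothing of binding.

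The deposited tables held 43957617 and 37089208 unique molecular identifiers (UMIs, each standing for 1 captured RNA molecule) in F592A sections, against 42911141 and 30154873 in WT sections. After spots under 500 UMIs were left out, 2834 and 2748 spots remained in F592A sections, against 3043 and 2024 in WT sections. The tissue carried its label: the summed level of 8 tenocyte genes was 4174 and 3793 CPM (UMIs per 1e6 UMIs) in F592A sections, against 4823 and 6227 CPM in WT sections. All 12 core macrophage genes were detected in every section, at a summed level of 1732 and 1696 CPM in F592A sections, against 1547 and 1798 CPM in WT sections. The sections also held skin, hair follicle, muscle, nerve and fat in unequal amounts. The summed myelin gene level was 370 and 362 CPM in F592A sections, against 1616 and 706 CPM in WT sections, and the keratinocyte level was 2557 and 3447 CPM in F592A sections, against 2175 and 769 CPM in WT sections. In a sum over spots, fewer cells of a type and less RNA per cell cannot be told apart.

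In whole sections Lgals3 was the member that stood furthest apart between the groups, and no member passed the test. Lgals3 had 409.6 and 391.8 CPM in F592A sections, against 274.9 and 305.9 CPM in WT sections. Trem2 had 75.3 and 65.5 CPM in F592A sections, against 54.7 and 64.9 CPM in WT sections. Both genes were higher in each F592A section than in each WT section, Trem2 by less than 1 CPM at the nearest pair. Ranges that do not overlap were common here: they held for 2 of the 6 members and for 43.7% of the 16347 genes tested, with F592A higher in 23.4%.

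The other members overlapped between the groups. Spp1 had 394.7 and 292.1 CPM in F592A sections, against 421.7 and 312.2 CPM in WT sections. Gpnmb had 66.7 and 81.3 CPM in F592A sections, against 75.0 and 90.1 CPM in WT sections. Cd9 was nearly level, with 512.5 and 583.2 CPM in F592A sections, against 512.8 and 500.4 CPM in WT sections. Fabp5 had 342.1 and 376.8 CPM in F592A sections, against 428.9 and 183.8 CPM in WT sections, so that the WT sections spanned more than the distance between the groups. Fabp5 has processed copies elsewhere in the mouse genome, and its level is uncertain where reads were shared with them.

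The edgeR quasi-likelihood test with Benjamini-Hochberg adjustment, fitted to section sums of all genes, called 13 of 16347 genes (0.0795%) and none of the 6 members. For Lgals3 it gave a log2 fold change of 0.44 ± 0.13 (SE) for F592A over WT, with an edgeR adjusted p of 0.320. For Trem2 the log2 fold change was 0.21 ± 0.15 (edgeR adjusted p = 0.641). The other log2 fold changes were −0.11 ± 0.21 for Spp1, −0.19 ± 0.15 for Gpnmb, 0.09 ± 0.12 for Cd9 and 0.22 ± 0.36 for Fabp5, with edgeR adjusted p-values between 0.677 and 0.881. Without WT 1, Fabp5 was called at 0.91 ± 0.16 (edgeR adjusted p = 0.0263), a fit in which WT 2, the section with the least Fabp5, stood alone and was assumed to vary like the F592A sections. The same limit holds for every other fit that leaves out a section: the group with 1 section left is assumed to vary like the other.

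Among genes that work with these members, 1 passed the test in whole sections. Of the 12 tested genes of Trem2 signalling, Clu fell and no gene rose. Clu, which encodes the secreted chaperone clusterin, reported to bind Trem2, had a log2 fold change of −1.45 ± 0.13 (edgeR adjusted p = 0.0491). Its normalised level was 49.1 and 40.6 CPM in F592A sections, against 117.6 and 128.1 CPM in WT sections. The Clu call was lost without F592A 1 and without F592A 2, where no gene was called, and without muscle, mitochondrial and haemoglobin genes, where no gene was called lower. Tyrobp, the Trem2 adaptor, had 0.20 ± 0.12 (edgeR adjusted p = 0.570). None of the 18 lysosome and cathepsin genes, the 15 lipid-handling macrophage genes, the 15 disease-associated myeloid genes or the 10 osteopontin receptor genes was called in either direction. The median log2 fold changes of these 4 lists were −0.03, −0.01, 0.20 and −0.01, beside a median of 0.00 over all genes tested.

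**Figure D1:**
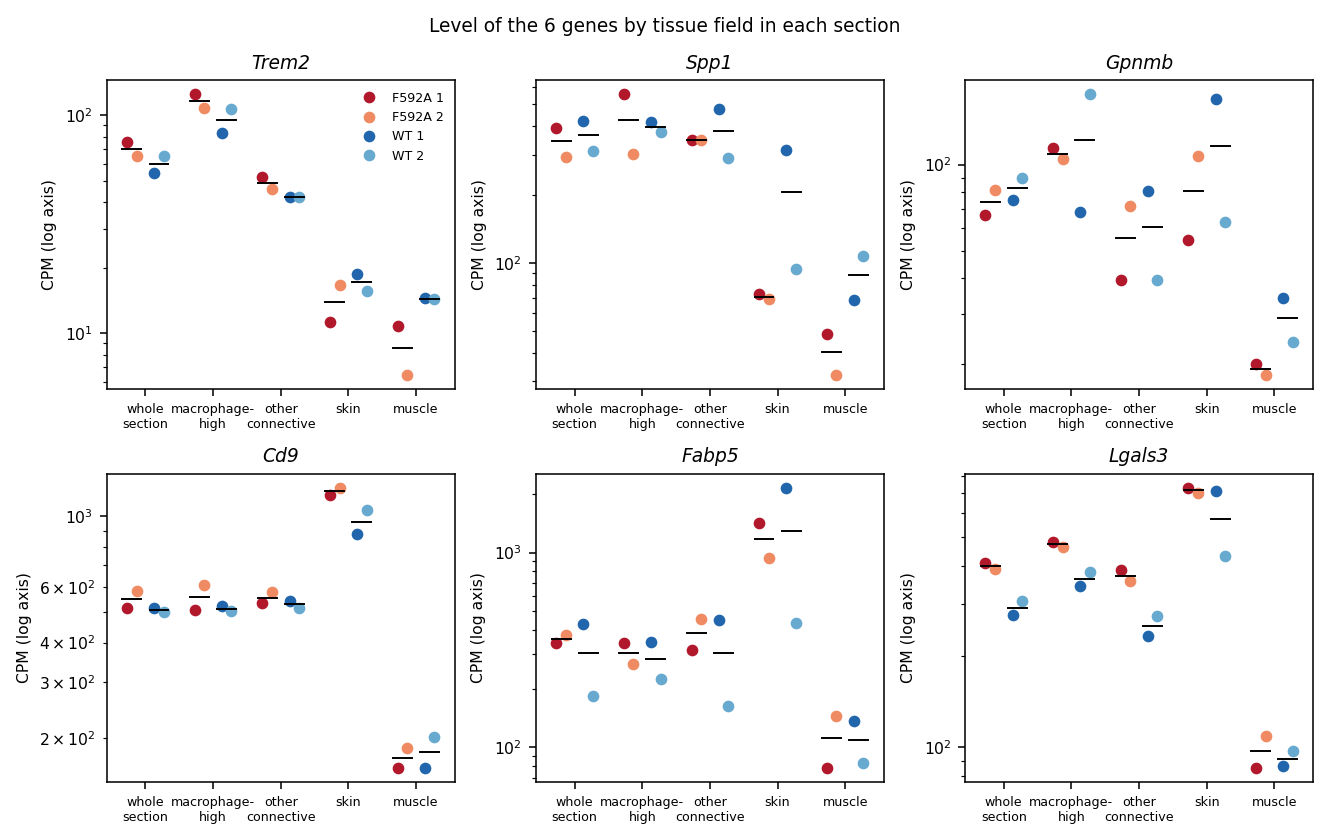
Level of each of the 6 genes in CPM (log axis) in whole sections and in 4 tissue fields, with a point per section (F592A left, WT right) and a line at the mean of each group. Trem2 is highest in macrophage-high spots in all 4 sections, Cd9 and Lgals3 are highest in skin, and Lgals3 lies higher in both F592A sections than in both WT sections in whole sections and in both connective fields.

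To ask where in the tissue the members lay, spots were divided by marker lists that hold none of the 6 genes. Skin spots drew at least 2% of their UMIs from keratinocyte, hair follicle and sebaceous gland genes, muscle spots at least 10% from muscle genes, and all others were connective. Connective spots in the top 25% by share of core macrophage UMIs (0.1743% of UMIs or more) were called macrophage-high. The connective field held 2058 and 2081 spots in F592A sections, against 2345 and 1815 in WT sections. It was not free of skin appendages: 13.7% and 19.2% of connective spots in F592A sections, and 7.38% and 7.49% in WT sections, belonged to a region led by hair follicle genes. Macrophage-high spots were also deeper, with median UMIs of 12081 to 19048 by section, against 5021 to 6107.5 in other connective spots.

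Trem2 had the largest difference of the 6 between macrophage-high and other connective spots. In macrophage-high spots it had 125.1 and 107.8 CPM in F592A sections and 82.97 and 107.1 CPM in WT sections. In other connective spots of the same sections it had 52.2 and 46.1 CPM in F592A sections and 42.4 and 42.2 CPM in WT sections, below the macrophage-high level every time. After thinning to 2000 UMIs per spot, Trem2 was detected in 13.7% and 11.8% of macrophage-high spots in F592A sections, and in 13.4% and 13.7% in WT sections. In muscle spots, a tissue not known for Trem2, the thinned share was 1.64% and 1.45% in F592A sections, and 1.94% and 2.80% in WT sections. The muscle spots had median depths of 5465 to 9993 UMIs.

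With the section as a block, the edgeR test called 4183 of 15345 genes (27.3%) between macrophage-high and other connective spots, 12.9% of genes higher and 14.4% lower. Trem2 rose in macrophage-high spots, with a log2 fold change of 1.18 ± 0.07 (edgeR adjusted p = 1.39e-05), in 4 of 4 sections. Lgals3 rose by a log2 fold change of 0.42 ± 0.06 (edgeR adjusted p = 0.0012), also in 4 of 4 sections. Per 100 core macrophage UMIs, by which the field was cut, Trem2 was lower in macrophage-high spots in 4 of 4 sections. This ratio was 4.32 and 3.60 in macrophage-high spots of F592A sections, against 4.58 and 4.66 in their other connective spots. In WT sections it was 3.16 and 3.34, against 4.28 and 4.21. Gpnmb, at 0.97 ± 0.32, missed the threshold (edgeR adjusted p = 0.0526). Spp1 at 0.14 ± 0.14, Cd9 at −0.04 ± 0.06 and Fabp5 at −0.16 ± 0.16 were not called, with edgeR adjusted p-values of 0.497 to 0.711.

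The Gpnmb difference rested on which section was read. Gpnmb had 114.4 and 104.3 CPM in macrophage-high spots of F592A sections, and 68.1 and 176.2 CPM in those of WT sections. In other connective spots it had 39.4 and 71.5 CPM in F592A sections, and 81.1 and 39.5 CPM in WT sections. WT 1 was thus the section in which Gpnmb was lower in macrophage-high spots than beside them. Without WT 1 the edgeR test called Gpnmb at 1.40 ± 0.22 (adjusted p = 0.00178). The placing of macrophage-high spots differed between sections. In WT 1, 50.7% of them fell in a region led by myelin genes, where the F592A sections had 0.842% and 0.201% of theirs and WT 2 had 0.378%. In WT 2, 41.4% fell in a region led by Xist. A region led by Igfbp2 held 41.5% and 56.7% in F592A sections, against 1.22% and 2.46% in WT sections. The part of this placing in the Gpnmb value, and in comparisons of the groups within macrophage-high spots, was not tested.

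Genes that share pathways with Trem2 rose with it in macrophage-high spots, which were chosen by 12 other macrophage genes. Of the Trem2 signalling list, 8 of 12 tested genes rose and Clu fell, and the median log2 fold change was 1.03, beside 0.00 over all genes. Tyrobp rose by 1.32 ± 0.06, the signalling protein Vav1 by 1.24 ± 0.09, and Hcst, the sister adaptor DAP10, by 1.41 ± 0.11 (log2, edgeR adjusted p of 3.03e-05 or less). Of the lysosome list 16 of 18 genes rose, among them the proteases Lgmn (0.99 ± 0.06) and Ctsb (0.62 ± 0.07). Of the disease-associated myeloid list 13 of 14 rose, led by the chemokines Ccl6 (2.01 ± 0.12) and Ccl9 (1.58 ± 0.11). Of the lipid-handling list 10 of 14 rose, among them the lipase Lipa (0.65 ± 0.05) and the scavenger receptor Msr1 (0.97 ± 0.11).

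The relatives of the other members divided, and their counts stand beside the 12.9% of all genes that rose and the 14.4% that fell. Among tetraspanins, the leukocyte forms Cd53 (1.47 ± 0.08) and Cd37 (1.26 ± 0.10) rose in macrophage-high spots, and 5 of 12 rose in all, while Cd9 itself was not called. Among galectins, Lgals3bp, a galectin-3 ligand, rose (0.93 ± 0.08) and Lgals7, a keratinocyte galectin, fell (−1.63 ± 0.10). Among 7 tested fatty acid binding proteins none rose, and Fabp3, the muscle form, fell (−1.82 ± 0.16). Of 10 osteopontin receptor genes 3 rose, including the integrin chain Itga4 (0.99 ± 0.10), and the epithelial chain Itgb6 fell (−1.33 ± 0.12).

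Cd9, Fabp5 and Lgals3 were highest outside the macrophage-high field. In skin spots Cd9 had 1170 and 1230 CPM in F592A sections, against 877.6 and 1048 CPM in WT sections. Fabp5 had 1426 and 933.9 CPM in skin spots of F592A sections, against 2151 and 435.5 CPM in those of WT sections. Lgals3 had 729.8 and 700.6 CPM in skin spots of F592A sections, against 713.5 and 431.6 CPM in those of WT sections. All 3 were above the connective level of the same section in 4 of 4 sections.

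The edgeR test of skin over connective spots, with the section as a block, called 7059 of 15699 genes (45%), 21.6% higher and 23.4% lower. Fabp5 rose in skin with a log2 fold change of 1.55 ± 0.21 (edgeR adjusted p = 1.69e-05). Cd9 rose by 0.77 ± 0.16 and Lgals3 by 0.62 ± 0.18 (edgeR adjusted p of 8.26e-04 and 0.00897). With the skin and muscle thresholds halved, Cd9 was 0.31 ± 0.15 and Lgals3 0.13 ± 0.18, and neither was called. Trem2 fell in skin by 2.44 ± 0.22 and Spp1 by 2.00 ± 0.28 (log2, edgeR adjusted p of 2.04e-07 and 2.01e-05). Gpnmb, at 0.00 ± 0.23, was not called (edgeR adjusted p = 0.994). Of the tested lysosome genes 14 of 18 fell in skin and none rose, and of the osteopontin receptors 7 of 10 fell.

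**Figure D2:**
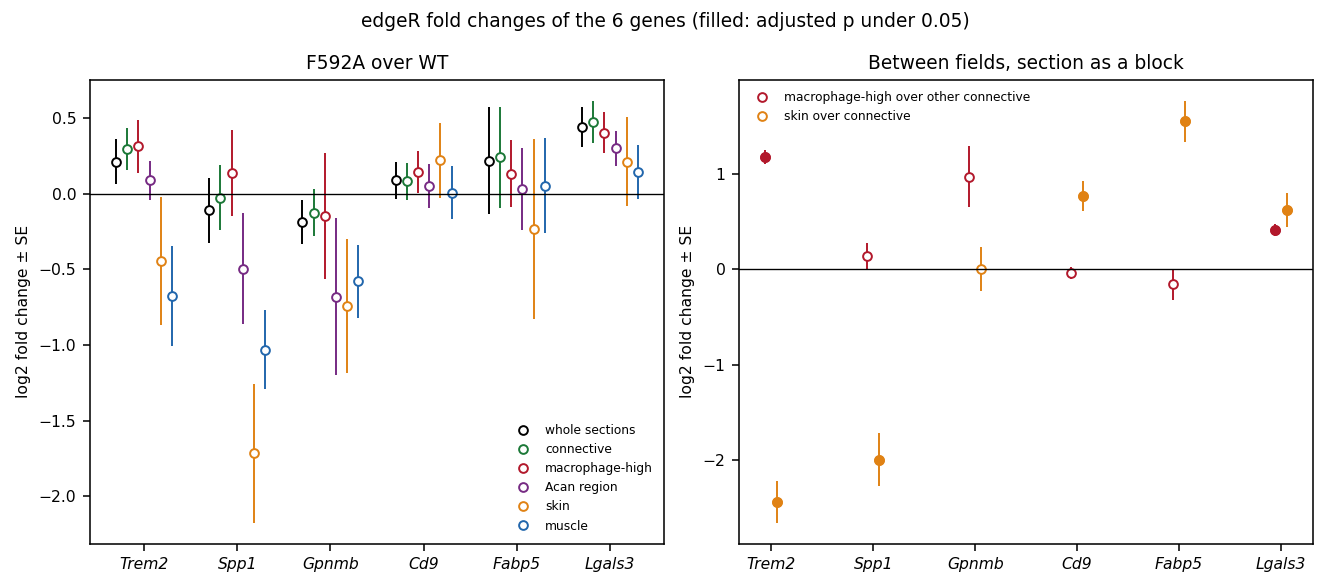
Log2 fold changes of the 6 genes with their standard errors from edgeR, for F592A over WT in 6 sets of spots (left) and between fields with the section as a block (right); filled points passed an adjusted p of 0.05. No point is filled on the left, and on the right Trem2 and Lgals3 are filled for macrophage-high spots and 5 genes are filled for skin.

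Within fields the groups were compared again, and no member was called in any of them. In connective spots 2 of 16077 genes were called (0.0124%). Lgals3 had 427.1 and 404.0 CPM there in F592A sections, against 278.6 and 315.6 CPM in WT sections, and its log2 fold change was 0.47 ± 0.14 (edgeR adjusted p = 0.347). In macrophage-high spots 15 of 14621 genes were called (0.103%). Lgals3 had 480.5 and 463.7 CPM there in F592A sections, against 343.8 and 380.9 CPM in WT sections, with a log2 fold change of 0.40 ± 0.14 (edgeR adjusted p = 0.367). Neither pair of ranges overlapped, as was so for 42.8% of genes tested in connective spots and 43.8% in macrophage-high spots. Trem2 per 100 core macrophage UMIs in connective spots was 4.41 and 3.91 in F592A sections, against 3.56 and 3.62 in WT sections, and its log2 fold change there was 0.29 ± 0.14 (edgeR adjusted p = 0.505). For Gpnmb in macrophage-high spots the log2 fold change was −0.15 ± 0.42 (edgeR adjusted p = 0.916), and without WT 2 it was called at 0.75 ± 0.13 (edgeR adjusted p = 0.0491).

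In skin and muscle, the fields with the least Spp1, both F592A sections lay below both WT sections, and the difference did not pass the test. A region with high Spp1, led by Krt2 and Ibsp, held 352 spots in WT 1. Of these 224 were connective and the others skin or muscle. It held 4 and 1 spots in F592A sections and 0 in WT 2, and its part in the skin and muscle values was not tested. In skin spots Spp1 had 72.6 and 69.0 CPM in F592A sections, against 315.5 and 94.2 CPM in WT sections. The edgeR test gave a log2 fold change of −1.71 ± 0.46 (unadjusted p = 0.00534, adjusted p = 0.369), and it called none of 10770 genes (0%), with 880 genes under an unadjusted p of 0.05 and 15 called by DESeq2. In muscle spots Spp1 had 48.6 and 31.9 CPM in F592A sections, against 68.5 and 107.5 CPM in WT sections, with a log2 fold change of −1.03 ± 0.26 (edgeR adjusted p = 0.199), where 8 of 11429 genes were called (0.07%). Trem2 in muscle had 10.8 and 6.45 CPM in F592A sections, against 14.5 and 14.4 CPM in WT sections, the opposite order to connective spots (log2 fold change −0.68 ± 0.33, edgeR adjusted p = 0.502). Gpnmb in muscle had 20.1 and 18.4 CPM in F592A sections, against 34.1 and 23.96 CPM in WT sections (−0.58 ± 0.24, edgeR adjusted p = 0.426). Ranges did not overlap for Spp1 in either field, for Cd9 in skin or for Trem2 and Gpnmb in muscle, as was so for 39.5% of genes tested in skin and 42.3% in muscle. Skin held 67 spots in WT 2, and without that section edgeR called Spp1 (−2.23 ± 0.21), Gpnmb (−1.13 ± 0.22) and Fabp5 (−0.94 ± 0.16) in skin. Without WT 1, Fabp5 was called in skin in the other direction (1.35 ± 0.21), and without F592A 1 the muscle value of Spp1 was called (−1.39 ± 0.29).

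Whether the difference between groups itself differed between fields was tested with an interaction term. Between macrophage-high and other connective spots none of 15345 genes (0%) was called by edgeR, 1293 had an unadjusted p under 0.05, and DESeq2 called 17. Between skin and connective spots 1 of 15699 genes (0.00637%) was called, and it was no member. The Spp1 interaction with skin was −1.42 ± 0.40 (edgeR adjusted p = 0.626) and was called without WT 2 (−1.98 ± 0.24), as was that of Gpnmb (−1.24 ± 0.27). The Gpnmb interaction with macrophage-high spots was 0.16 ± 0.67 (edgeR adjusted p = 0.969), and was also called without WT 2 (1.36 ± 0.24).

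**Figure D3:**
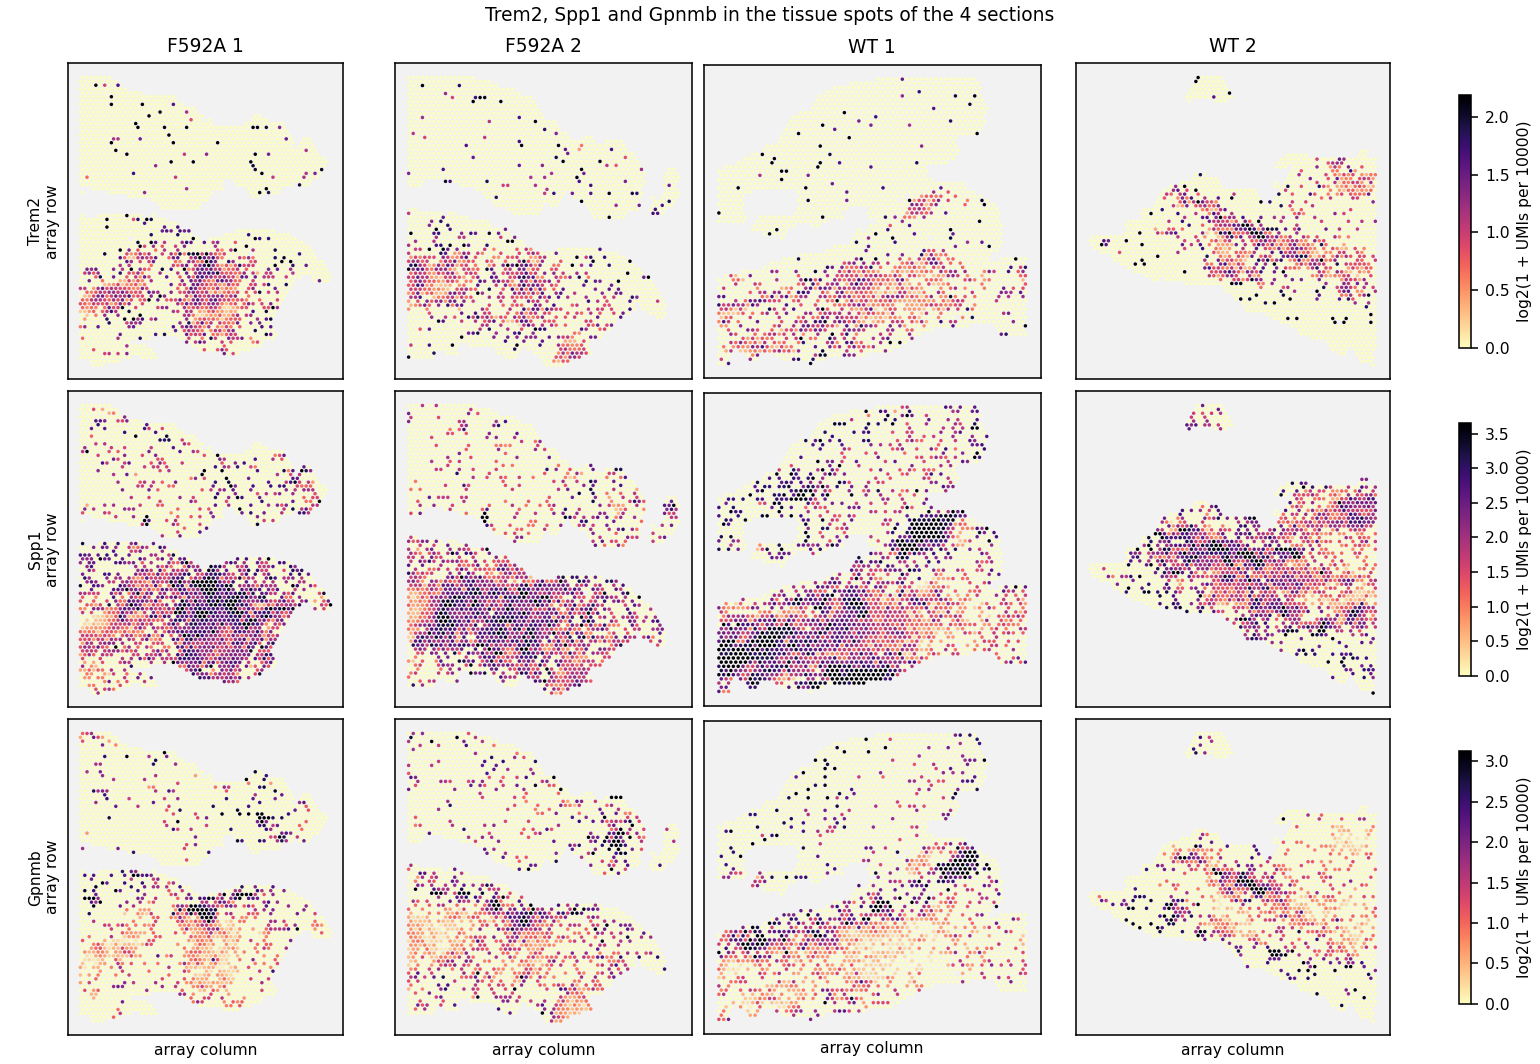
Trem2, Spp1 and Gpnmb (rows) in every kept spot of the 4 sections (columns), drawn by array row and column and coloured by log2(1 + UMIs per 10000) up to the 95th percentile of spots with the gene. Isolated dark spots in pale tissue are shallow spots with few UMIs; Gpnmb forms a dense patch that overlaps dense Trem2 and Spp1 in F592A 1 and WT 2, and Spp1 forms separate dense patches in WT 1.

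A grouping of spots by expression that left the 6 genes out gave 15 regions, and the members peaked in different ones. Some regions came mostly from a single section. A region led by Xist held 7 and 0 spots in F592A sections, against 6 and 871 in WT sections. The part of the sex of the mice in differences between sections was not tested. A region with the cartilage proteoglycan gene Acan, Ecm1 and Ndufa4l2 among its leading genes, called the Acan region, held 235 and 178 spots in F592A sections, against 119 and 251 in WT sections, and was the deepest with a median of 55473 UMIs. It held 7.35% of spots and 36.2% of the UMIs of all genes. It was picked from the 15 regions for its share of Trem2 UMIs, the largest of any region, as was its share of Spp1 UMIs. Its high Trem2 and Spp1 shares thus follow from that choice and are no separate result. Of the members' UMIs it held 52.2% for Trem2, 54.2% for Spp1 and 47.1% for Lgals3, above that share, 40.8% for Cd9 and 39.2% for Gpnmb, near it, and 28.5% for Fabp5, below it. Over the 4 sections together Trem2 was highest there, with 100.8 and 90.4 CPM in F592A sections, against 78.2 and 96.3 CPM in WT sections. In F592A 2 a region led by the fat cell genes Cfd and Adipoq was higher, at 98.1 CPM. With finer groups, at resolution 1.0, the region with the highest Trem2 was another set of spots with 5.95% of the Trem2 UMIs. In the Acan region Spp1 had 568.9 and 395.1 CPM in F592A sections, against 901.9 and 412.0 CPM in WT sections. Gpnmb had 82.4 and 48.4 CPM there in F592A sections, against 45.9 and 157.7 CPM in WT sections, so its level differed more between the WT sections than between the groups. The edgeR test in this region called 14 of 13796 genes (0.101%) and no member: Lgals3 was 0.30 ± 0.12, Spp1 −0.50 ± 0.37 and Gpnmb −0.68 ± 0.52 (log2, edgeR adjusted p of 0.418 to 0.649). Without WT 1, Gpnmb was called there at −1.29 ± 0.24 (edgeR adjusted p = 0.0480).

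Over the 4 sections together, Fabp5 and Gpnmb were both highest in a region of hair follicles and glands. This region of 1165 spots was led by the hair keratins Krt35 and Krt71, the keratinocyte galectin Lgals7 and the lipid synthesis genes Fa2h and Elovl6. It held 27.9% of all Fabp5 UMIs and 20.3% of all Gpnmb UMIs. Fabp5 had 2203 and 1638 CPM there in F592A sections, against 2821 and 563.6 CPM in WT sections. Gpnmb had 193.3 and 224.2 CPM there in F592A sections, against 575.1 and 284.6 CPM in WT sections. The summed melanocyte gene level was 204.1 CPM in this region, against 19.5 to 63.2 CPM in the other regions, and the core macrophage level was 816.6 CPM, against 2127 CPM in the Acan region. Trem2 was low, at 22.2 to 30.2 CPM in the 4 sections.

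The pair of regions with the highest Spp1 level came mostly from WT 1. The region with the highest Spp1 level, led by the epidermal keratins Krt2 and Krt10 and by Ibsp, the bone sialoprotein gene, held 352 of its 357 spots in WT 1, where Spp1 had 1106 CPM and Trem2 43.5 CPM. The summed osteoblast gene level there was 248.0 CPM, against 7.6 to 41.9 CPM in every other region. A region with the myelin gene Mbp among its leading genes held 403 of 442 spots in WT 1, with 555.2 CPM of Spp1 and 638.1 CPM of Cd9. Its few spots in the other sections, 9 and 10 in F592A sections and 20 in WT 2, had 1108 and 824.6 CPM of Spp1 in F592A sections and 1221 CPM in WT 2. Cd9 reached 1258 and 1696 CPM in those F592A spots, and 1558 CPM in those of WT 2. Cd9 and Lgals3 were highest in an epidermal region of 229 spots led by Krt77, Krtdap and Lor, at 1483 and 890.9 CPM over all sections. Peak levels moved with how finely spots were grouped: at resolution 0.3 in place of 0.6, the highest region had 691.2 CPM of Spp1, 778.2 CPM of Cd9 and 457.2 CPM of Lgals3, and at resolution 1.0 the highest region for Fabp5 had 3965 CPM.

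**Figure D4:**
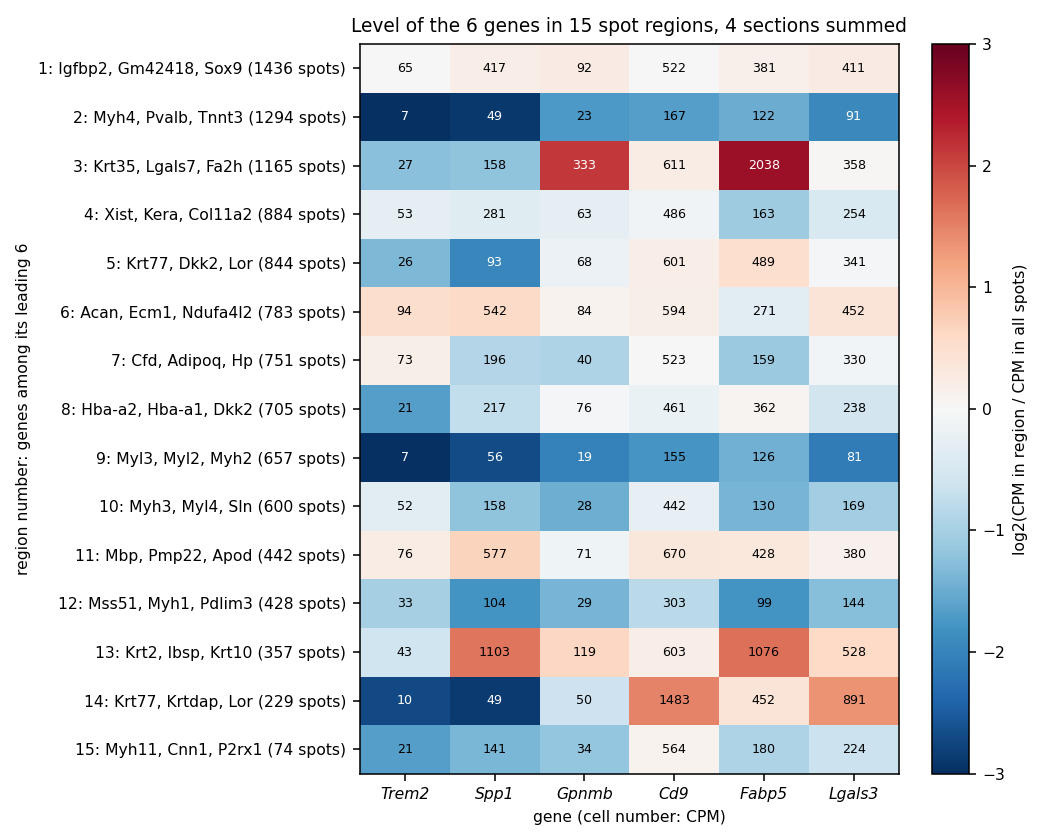
Level of the 6 genes in 15 spot regions over the 4 sections together, coloured by the log2 ratio of the CPM in the region to the CPM in all spots, with the CPM written in each cell. Trem2 is highest in the Acan region (94 CPM), Fabp5 (2038 CPM) and Gpnmb (333 CPM) in the Krt35-led region, Spp1 in the Krt2- and Ibsp-led region (1103 CPM), and Cd9 (1483 CPM) and Lgals3 (891 CPM) in the Krt77- and Krtdap-led region.

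The 6 genes met in the same spots slightly more often than their single shares would give. With every spot thinned to 2000 UMIs, 14 of the 15 pairs had a ratio of joint to multiplied single shares above 1 in all 4 sections, with a median of 1.16 and a range of 0.91 to 1.48. Within connective spots this held for 13 of 15 pairs. Trem2 and Spp1 had ratios of 1.47 and 1.36 in F592A sections, against 1.38 and 1.20 in WT sections. Trem2 and Gpnmb had 1.48 and 1.24 in F592A sections, against 0.91 and 1.48 in WT sections, and WT 1 was the exception below 1. Trem2, Spp1 and Gpnmb were met together in 0.532% and 0.418% of thinned spots in F592A sections, against 0.377% and 0.766% in WT sections. That was 2.99 and 1.97 times the multiplied shares in F592A sections, and 1.31 and 2.45 times in WT sections. These ratios come from spots that differ in tissue and can hold several cells, so they do not place the genes in 1 cell. They were not computed for other genes, so how many other pairs lie above 1 is not known.

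**Figure D5:**
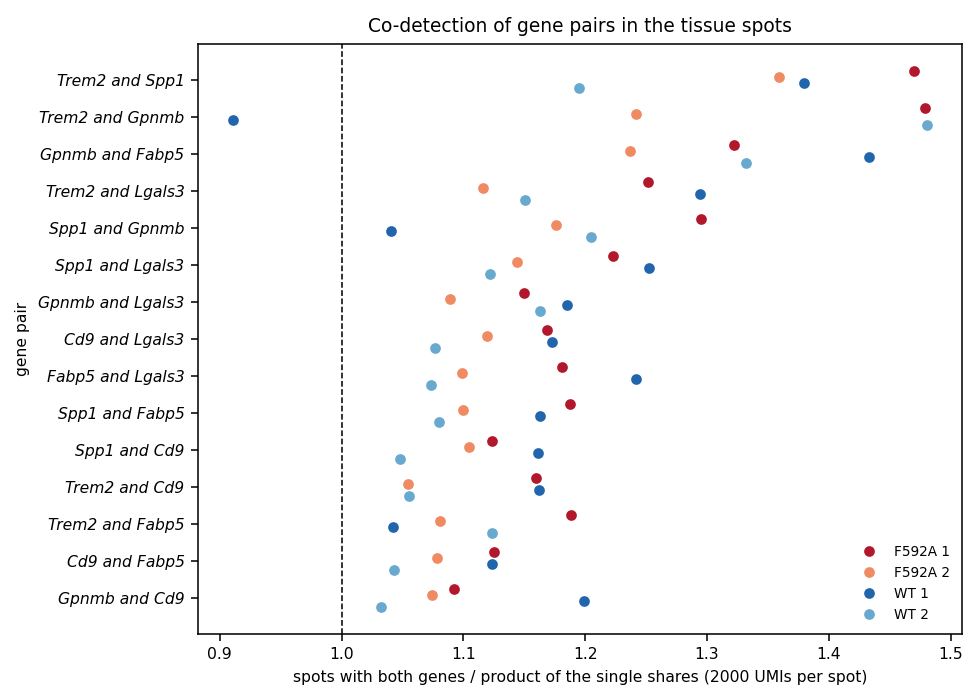
Ratio of the share of spots with both genes to the product of their single shares at 2000 UMIs per spot, for the 15 pairs in the 4 sections; the dashed line marks 1. The Trem2 and Gpnmb point of WT 1 at 0.91 is the only one left of the line, and the pair reaches 1.48 in F592A 1 and in WT 2.

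In F592A 1 and WT 2 the spots high for Trem2, Spp1 and Gpnmb at once lay close together. Among the 2497 and 2690 spots of F592A sections, and the 2586 and 1737 of WT sections, with 2000 UMIs or more, those in the top 5% of their section by CPM for each of the 3 genes, a rule chosen after the values were seen, numbered 9 and 4 in F592A sections, and 2 and 12 in WT sections. All of these spots were connective and macrophage-high. A rule that includes Trem2 favours such spots, because Trem2 was higher in macrophage-high than in other connective spots. In F592A 1, 8 of the 9 formed a patch joined by links of up to 2 steps, and so did 8 of the 12 in WT 2. Spots of a patch could thus lie more than 2 steps from each other. The 4 in F592A 2 and the 2 in WT 1 lay apart. These spots lay in the Acan region for 8 spots of F592A 1 and all 12 of WT 2.

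These few spots carried much of the Gpnmb in the examined spots of F592A 1 and WT 2. They were chosen by their Trem2, Spp1 and Gpnmb levels, so the rule partly fixes the high levels and shares of those genes. Cd9, Fabp5 and Lgals3 were not part of the rule. Shares are of the UMIs in the examined spots of a section. The 9 spots of F592A 1 held 20.9% of the Gpnmb UMIs, 6.61% of the Spp1 and 4.16% of the Trem2, in 0.811% of all UMIs. The 12 spots of WT 2 held 33.0%, 13.02% and 12.7% of the same genes in 1.97% of all UMIs. In F592A 2 and WT 1 the spots held 5.80% and 3.26% of the Gpnmb UMIs. In the 9 spots of F592A 1, Trem2 was at 389.1 CPM, Spp1 at 3243 CPM, Gpnmb at 1721 CPM and Fabp5 at 1752 CPM. In the 12 spots of WT 2 they were at 422.2, 2080, 1514 and 1137 CPM. Lgals3 was at 1179 CPM in those of F592A 1 and 1438 CPM in those of WT 2. Cd9 was at 727.0 CPM in those of F592A 1 and 702.5 CPM in those of WT 2, nearer its section levels of 512.5 and 500.4 CPM. A spot of WT 2 held 432 Spp1, 196 Gpnmb and 24 Trem2 UMIs among 36646, and a spot of F592A 1 held 315 Spp1, 115 Gpnmb and 42 Trem2 UMIs among 89412.

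Other marker lists also differed between all of these spots, in and outside the patches, and their whole sections, which include skin and muscle. The core macrophage level was 6072 CPM in the spots of F592A 1 and 7613 CPM in those of WT 2, against section levels of 1732 and 1798 CPM. Over all sections together the Acan region, where most of these spots lay, had 2127 CPM. Trem2 was part of the rule, and its level rose with the core macrophage list across spots (mean r of 0.31). The rule thus partly fixes the high macrophage level. The osteoclast list, whose genes Acp5 and Ctsk are also used by other macrophages, was at 1514 and 960.6 CPM in the spots of F592A 1 and WT 2, against 589.2 and 557.1 CPM in those whole sections. The hair follicle list was at 90.9 and 92.3 CPM in those spots, below the 209.0 and 283.7 CPM of the sections, while the melanocyte list was higher there, at 59.6 and 49.6 CPM, than in those whole sections, at 22.3 and 31.3 CPM. Their part in the member levels was not tested.

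The single genes' highest 20 spots by CPM, among spots of 2000 UMIs or more, fell in different tissue. The Fabp5 spots lay in the hair follicle and gland region in 20 and 19 cases in F592A sections, and in 20 and 11 in WT sections. The Gpnmb spots lay there in 11 and 12 cases in F592A sections and in 19 in WT 1, whereas in WT 2 the Acan region held 9, the most of any region. In the summed Gpnmb spots of F592A 1 and WT 2, Trem2 reached 307.8 and 358.5 CPM, with a Trem2 UMI in 8 and 10 of the 20. In those of F592A 2 and WT 1 it was 112.0 and 46.7 CPM, with a Trem2 UMI in 7 and 3. Of the 20 highest Trem2 spots, 6 and 4 were macrophage-high in F592A sections, against 6 and 11 in WT sections. A ranking by CPM can favour shallow spots, where few Trem2 UMIs give a high CPM. By UMIs, macrophage-high spots held 62.8% and 63.9% of Trem2 in F592A sections, and 55.7% and 61.8% in WT sections. Their shares of all UMIs were 37.8% and 38.8% in F592A sections, and 36.7% and 37.5% in WT sections. The Spp1 spots of WT 1 lay in the Krt2- and Ibsp-led region in 11 cases, with Spp1 at 4643 CPM and Trem2 at 95.1 CPM. The Cd9 spots of WT 1 lay in the myelin-led region in 18 cases.

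Spp1 and Fabp5 were the most clustered over the array in all sections but WT 2, where Fabp5 was the least clustered. Moran's I, which is near 0 for scattered levels and rises as neighbouring spots grow alike, was 0.45 and 0.50 for Spp1 in F592A sections, against 0.49 and 0.32 in WT sections. For Fabp5 it was 0.44 and 0.49 in F592A sections, against 0.50 and 0.17 in WT sections. For Trem2 it was 0.24 and 0.21 in F592A sections, against 0.22 and 0.21 in WT sections. The mean distance of a Gpnmb UMI from the nearest position without tissue was 7.95 and 6.83 grid steps in F592A sections, and 6.18 and 8.54 in WT sections, below the mean of all UMIs in each section (9.41 and 8.74 in F592A sections, 7.23 and 10.1 in WT sections). Fabp5 UMIs were likewise nearer the margin than all UMIs in 4 of 4 sections, while Trem2 UMIs were deeper in 3 of 4.

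The share of spots with a UMI was compared at equal depth. At 2000 UMIs per spot, Lgals3 was met in 41.6% and 43.4% of spots in F592A sections, against 35.9% and 35.9% in WT sections. Spp1 was met in 29.0% and 27.1% of spots in F592A sections, against 34.2% and 33.3% in WT sections, the reverse order. For both genes the exact two-sided permutation test gave p = 0.3333, and with 2 sections in each group no lower value can be reached. How many of all genes keep the groups apart on this measure was not computed.

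The genes most like each member across spots were listed by the mean of the 4 within-section correlations of log counts, over 2024 to 3043 spots per section that share depth and tissue mixture. Trem2 was most like Col3a1 (mean r of 0.35), the macrophage lysozyme Lyz2 (0.32), Sparc, Postn and the macrophage protease Ctss (0.30). Spp1 was most like matrix genes, namely Sparc (0.46), Fn1, Col1a1, Col3a1 and Col1a2. Gpnmb was most like the hair genes Krt35 (0.24), S100a3, Padi3 and Krt71 and the epithelial protease gene St14. Among the 5 genes most like Fabp5 were Lgals7 (0.35), a skin gene, and Fa2h, Elovl6 and Msmo1, which serve sterol or fatty acid synthesis. Lgals3 was most like Col3a1 (0.39), Actb, Eef1a1, Sparc and Actg1, and Cd9 was most like Actb (0.37), Eef1a1, Sparc, Col3a1 and Anxa2. No member was among the top 5 of another.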

How the data were processed

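The deposited files held raw UMI counts per gene and spot for 4 Visium sections. The software version in the matrix files is 1.3.0, per the file headers. The submitters' processing notes name Space Ranger, the build mm10 and Seurat 3. The values are whole numbers with no normalisation applied.

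Spots under 500 UMIs were left out (3 or 4 per section). Barcodes mark array positions, so sections shared 994 to 2429 of them by design. Counts were summed per section and field, and sums were tested with the edgeR 4.0.16 quasi-likelihood test (R 4.3.3, TMM scaling, filterByExpr) on all genes with Benjamini-Hochberg adjustment; a gene was called at an adjusted p under 0.05. Field contrasts and interactions kept the section as a block. Fold changes are log2 and their errors are SE. CPM are UMIs per 1e6 UMIs of the same spots. Shares with a UMI and joint shares were expectations after thinning to 2000 UMIs. Regions were Leiden clusters (scanpy 1.11.5, resolution 0.6) made without the 6 genes, and no doublet caller was run on spots. The whole-section sums hold 30154135 to 43956673 UMIs per section.

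The members, the 33 gene lists and the comparisons were chosen with earlier results of these data known, and 5 list symbols had no match. Genes of a list were named from those with the smallest p in it, and the 5 genes with the highest mean correlation were named for each member; some leading and correlated genes are not reported here. The Acan region's fit and the spots high for 3 genes were added after the data were seen. That region was chosen for the largest share of Trem2 UMIs. The labels do not say whether equal replicate numbers pair sections. The difference between section 1 and section 2 in F592A correlated with that in WT at r = −0.178 across 11763 genes. These genes are not independent, and the value cannot settle whether sections were paired. The alternatives left out each section in turn, changed the field thresholds and the UMI minimum, added a replicate block, dropped the count filter, or used DESeq2 1.42.0 or RLE factors.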

Additional observations from a re-analysis of the deposited data

How the results depend on the processing

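With 2 sections per group, counts of called genes or of co-detected pairs moved by over 1.5 times in 38 of 83 alternatives. Counts of called genes did so in 29 of 40 fits that left out a section. Of the members' fold changes 445 of 474 kept direction and side of the threshold, and 189 of 240 with a section left out. The causes were not tested. DESeq2 called 420 genes in whole sections, 339 in connective spots, 223 in macrophage-high spots, 15 in skin, 56 in muscle, 17 for the macrophage-high interaction and 144 in the Acan region. With no filter on low counts these were 546, 378, 688, 210, 563, 68 and 870, and 56 for the skin interaction. Without muscle, mitochondrial and haemoglobin genes the counts were 1, 1 and 6 in whole sections, connective and macrophage-high spots, 5 in muscle, 0 for the skin interaction and 2 in the Acan region. RLE scaling gave 5 in whole sections and 0 for the skin interaction. Halved skin and muscle thresholds gave 8 in connective spots, 19 in muscle and 8 for the skin interaction, and doubled ones 4 in connective spots and 1 for the macrophage-high interaction. The top 10% of spots gave 59 for that interaction, and a macrophage list without C1q genes gave 24 in macrophage-high spots and 9 for it. Without the hair follicle region, chosen after seeing the data, connective spots gave 5. Doubled thresholds were not run for skin, muscle or their contrasts, where a section had under 50 spots. Left-out sections gave 0 to 390 calls in whole sections, 0 to 163 in connective spots, 73 to 204 in macrophage-high spots, 3 to 1177 in skin, 9 to 617 in muscle, 0 to 160 and 0 to 434 for the macrophage-high and skin interactions, and 0 to 267 in the Acan region.

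Whether replicate numbers pair the sections is not known. As a replicate block they gave 7 calls in whole sections, 7 in macrophage-high spots, 1 in skin, 25 in muscle and 69 in the Acan region. Crossed numbers, added after seeing the data, gave 189 in whole sections.

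Signs turned mainly near 0. The log2 fold change of F592A over WT became 0.0021 for Spp1 in connective spots with halved thresholds, 0.0254 for Gpnmb there without the hair follicle region, 0.0148 for Gpnmb in macrophage-high spots with the replicate block, and −0.12 for Fabp5 in the top 10% of spots. Fabp5 became 0.13 in skin with the replicate block and 0.0898 with halved thresholds, 0.13 in the skin interaction with halved thresholds, and −0.0257 in the Acan region with the replicate block. Muscle with halved thresholds gave −0.0169 for Cd9 and −0.0641 for Lgals3. Macrophage-high over other connective spots gave 0.0325 for Cd9 with doubled thresholds, and for Fabp5 0.0458 with halved ones, 0.0672 in the top 10% and 0.0572 without C1q genes. Gpnmb in skin over connective spots was −0.054 with DESeq2, −0.0495 with no filter and 0.84 with halved thresholds (edgeR adjusted p = 0.0410). Gpnmb in macrophage-high over other connective spots was called in 5 alternatives beside the one without WT 1, at 0.98 to 1.31. With no filter, edgeR called Spp1 in skin (−1.65), in muscle (−1.02), in the skin interaction (−1.43) and in the Acan region (−0.47), and Gpnmb in the Acan region (−0.66).

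With a section left out, the log2 fold change of F592A over WT ran in whole sections over −0.38 to 0.12 for Spp1 and −0.24 to 0.91 for Fabp5. In connective spots it ran over −0.28 to 0.19 for Spp1, −0.30 to 0.079 for Gpnmb and −0.19 to 0.86 for Fabp5. In macrophage-high spots it ran over −0.39 to 0.53 for Spp1, −0.70 to 0.75 for Gpnmb and −0.11 to 0.44 for Fabp5. In skin it ran over −1.21 to 0.27 for Gpnmb, −0.94 to 1.35 for Fabp5 and −0.0705 to 0.63 for Lgals3. In muscle it ran over −0.11 to 0.14 for Cd9, −0.44 to 0.53 for Fabp5 and −0.0237 to 0.30 for Lgals3. In the Acan region it ran over −0.034 to 0.22 for Trem2, −0.97 to 0.20 for Spp1, −1.29 to 0.45 for Gpnmb, −0.12 to 0.21 for Cd9 and −0.46 to 0.40 for Fabp5. Macrophage-high over other connective spots ran over −0.0349 to 0.28 for Spp1 and −0.35 to 0.0425 for Fabp5, and skin over connective spots over −0.41 to 0.22 for Gpnmb. The macrophage-high interaction ran over −0.0476 to 0.35 for Trem2, −0.23 to 0.63 for Spp1, −1.07 to 1.36 for Gpnmb and −0.73 to 0.12 for Fabp5, and the skin interaction over −1.24 to 0.58 for Gpnmb, −0.76 to 0.51 for Fabp5 and −0.66 to 0.34 for Lgals3.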

Other observations

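Among the other Trem family genes tested, Cd300lb and Cd300lf, immune receptors of myeloid cells, were the 2 of 3 that rose in macrophage-high over other connective spots in the edgeR fit. Among the Gpnmb family and MiT factor genes, 3 of 8 rose there and none fell, beside 12.9% of all genes that rose and 14.4% that fell, with Tfec, a transcription factor of myeloid cells, at a log2 fold change of 1.12.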
